A study of Mus musculus with 18 samples.

Results

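Messenger RNA of 8 cathepsins, legumain and cystatin C was measured in microglia, the resident macrophages of the brain, purified from Chd8 KO and WT mice of both sexes. The 10 genes (Ctsa, Ctsb, Ctsc, Ctsd, Ctsh, Ctsl, Ctss, Ctsz, Lgmn and Cst3) were chosen by symbol as a family of lysosomal proteases with their secreted inhibitor, and are 10 of the 55414 gene identifiers in the table. Chd8 encodes a chromatin remodeler. The 18 libraries fell into male KO (n = 5), male WT (n = 5), female KO (n = 4) and female WT (n = 4). The labels name the Chd8 KO, and in every group carry the prefix HX, which they do not explain; they name no further allele or agent. They give no strain, age, driver of the KO or way of purifying the cells, so what the KO removes and in which cells is not given in the sources used here. Libraries were made by bulk MARS-seq, which counts transcripts by tags at their polyadenylated 3' ends. Values are counts of unique molecular identifiers (UMIs) per 1000000, scaled by TMM and given as CPM, unless reads are named.

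Cathepsins are made as inactive precursors, sorted to the lysosome and activated there at low pH. Most of those measured are cysteine proteases, cathepsin D is an aspartic protease, cathepsin A is a serine carboxypeptidase, and legumain cuts after asparagine and helps to mature several of the others. Cystatin C is a secreted inhibitor of the cysteine cathepsins. Microglia are rich in this set: Cst3, Ctss and Ctsd are widely used to mark them, and the proteases degrade what microglia take up and trim peptides for presentation on class II molecules.

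RefSeq promoter windows of 250 bases before to 50 bases after a start (GRCm38.p6) were at hand for 8 of the 10 genes, and were searched for letters bound by regulators of lysosomal and macrophage genes. CACGTG, which reads the same on both strands, is the core of the element bound by the TFEB family of lysosomal regulators. It was found in at least 1 window of each of Ctsa, Ctsd, Ctsl and Lgmn, and in 7.15% of 32851 promoter windows of the genome. Ctsa and Lgmn had 2 windows each and every other gene 1, so genes are here set beside a share of windows. GAGGAAGT, searched on both strands, is a form of the site of PU.1, a factor of the macrophage lineage. It was found in the windows of Ctsc and Ctss, and in 3.20% of all windows. No gene had both runs of letters. The stretches around each match are shown so that the flanking bases can be read, first for CACGTG and then for the PU.1 letters. Each is given 5' to 3' on the strand of its gene, with the match in capitals; both PU.1 matches lay on the opposite strand and so read ACTTCCTC.
Ctsa, chr2:164833750-164833777, plus strand: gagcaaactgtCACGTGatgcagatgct
Ctsa, chr2:164833767-164833794, plus strand: atgcagatgctCACGTGaccagagctac
Ctsd, chr7:142388050-142388077, minus strand: tccccCACGTGacctgtatccagtcatt
Ctsd, chr7:142387909-142387936, minus strand: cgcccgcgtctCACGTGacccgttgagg
Lgmn, chr12:102439125-102439152, minus strand: ggaatgtctgtCACGTGgtccattttat
Ctsl, chr13:64370740-64370767, minus strand: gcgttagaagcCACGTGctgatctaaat
Ctss, chr3:95526774-95526801, plus strand: atgaaagttcACTTCCTCattgtggatg
Ctsc, chr7:88277924-88277951, plus strand: tcactaactaACTTCCTCaggccacctc
Ctsa and Ctsd each held 2 copies of CACGTG within 1 window. The windows of Cst3 and Ctsz held neither run of letters, which says only that these letters are not in those windows.

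The libraries held 435838 to 9149144 UMIs from 2405764 to 17313836 reads. Female KO replicate 33 was the shallowest, female WT replicate 34 followed with 458075 UMIs, and male KO replicate 40 was the deepest. Reads per UMI fell into 3 ranges that were unevenly spread over the groups. The low range (1.79 to 1.89) held 4 male KO, 3 male WT and 1 female KO library, the middle range (2.94 to 3.12) held 1 male KO, 2 male WT, 2 female KO and 1 female WT library, and the high range (5.52 to 7.26) held 1 female KO and 3 female WT libraries. All 12 microglial markers were detected in every library, with a summed level of 33857 to 38604 CPM in male KO, 39050.0 to 42937 in male WT, 37146 to 39572 in female KO and 32333 to 35459 in female WT libraries. Chd8 had 97.4, 116, 96.4, 102 and 109 CPM in male KO against 159, 135, 167, 143 and 156 CPM in male WT libraries, and 117, 121, 116 and 139 CPM in female KO against 164, 181, 186 and 132 CPM in female WT libraries. Its log2 fold change was -0.54 ± 0.10 (SE) in males (edgeR adjusted p = 0.00171) and -0.44 ± 0.12 in females (edgeR adjusted p = 0.0547). Whether the counted 3' tags lie in the deleted part is not known.

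All 10 genes passed the filter on low counts. Their transcripts together made up 6.20% ± 0.888 of UMIs in male KO (SD, n = 5), 7.01% ± 0.276 in male WT (n = 5), 7.22% ± 1.66 in female KO (n = 4) and 7.63% ± 0.377 in female WT libraries (n = 4). The female KO libraries ranged over 6.18% to 9.69%, and the highest of them was replicate 33; the other 3 averaged 6.39% ± 0.204. Cst3 carried most of that spread. The 9 proteases without it made up 2.86% ± 0.155 in male KO, 2.96% ± 0.0529 in male WT, 2.77% ± 0.352 in female KO and 2.82% ± 0.197 in female WT libraries. In bulk RNA a smaller number of cells of a type and less RNA per cell cannot be told apart.

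**Figure D1:**
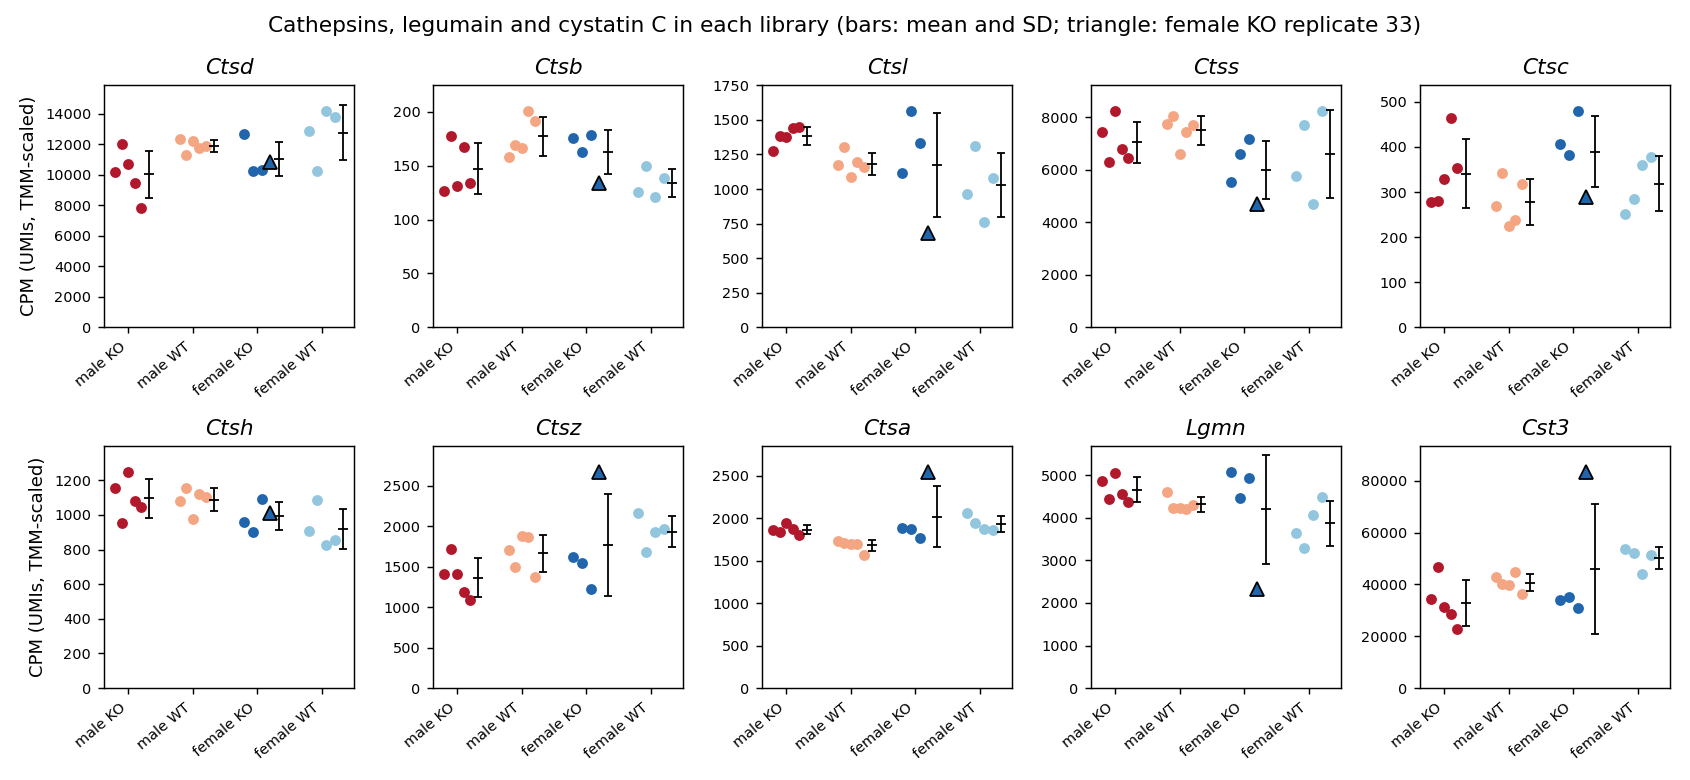
CPM (TMM-scaled counts per 1000000, linear axis from 0) of each of the 10 genes in every library, with male KO, male WT, female KO and female WT from left to right, 1 point per library, bars for each group's mean and SD, and a triangle for female KO replicate 33. That library is the highest point for Cst3, Ctsa and Ctsz and the lowest for Ctsl and Lgmn.

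None of the 10 genes was called between KO and WT in either sex. With edgeR at an adjusted p under 0.05, 0 of 10 were called in males, where 6.24% of 10948 genes tested were, and 0 of 10 in females, where 2.68% were. At an unadjusted p under 0.05, 2 genes (Ctsb and Ctsd) passed in males and 1 (Ctsb) in females. DESeq2 also called 0 in each sex. The 95% intervals of the log2 fold changes lay within -0.76 to 0.63 in males and -0.62 to 0.70 in females, so for every gene a KO level under 0.590 times or over 1.63 times the WT level lay outside its interval. The median log2 fold change of the 10 genes was -0.041 in males and 0.081 in females, beside -0.0084 in males and 0.011 in females over all genes tested. Differences of the KO effect between the sexes (female minus male) were called for 0 of 10 genes by edgeR and by DESeq2, where edgeR called 0.237% of all genes, and 1 gene (Ctsb) passed at an unadjusted p under 0.05.

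Ctsd encodes the aspartic endoprotease of the lysosome (chromosome 7, 142375911 to 142388038). It had 10184, 12016, 10701, 9437 and 7838 CPM in male KO against 12344, 11288, 12204, 11773 and 11863 CPM in male WT libraries. Female KO libraries held 12650.4, 10263, 10331 and 10836 CPM, against 12855, 10223, 14182 and 13778 CPM in female WT libraries. In males 4 of the 5 KO libraries lay under every WT library and replicate 9 lay among them, and in females the groups overlapped. The log2 fold change was -0.25 ± 0.11 in males (edgeR adjusted p = 0.255) and -0.21 ± 0.13 in females (edgeR adjusted p = 0.455). Over both sexes with equal weight it was -0.23 ± 0.086, with an unadjusted p of 0.0142 and an edgeR adjusted p of 0.100. The annotated gene Gm49369 shares 6757 bases with Ctsd on the same strand and had a median of 50.5 UMIs per library.

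Among the cysteine endoproteases, Ctsb (chromosome 14, 63122462 to 63145923) gave opposite signs in the 2 sexes. Cathepsin B is a broad lysosomal protease that also removes dipeptides from carboxyl ends. It had 126, 178, 131, 168 and 134 CPM in male KO against 158, 169, 167, 201 and 192 CPM in male WT libraries. In females the KO libraries held 176, 163, 179 and 134 CPM, against 125, 149, 121 and 138 CPM in female WT libraries. In females 3 of the 4 KO libraries lay above every WT library, and in males 3 of the 5 KO libraries lay under every WT library. KO over WT gave a log2 fold change of 0.30 ± 0.14 in females (edgeR adjusted p = 0.291) and -0.27 ± 0.11 in males (edgeR adjusted p = 0.201). Their difference, 0.57 ± 0.18, had an unadjusted p of 0.00432 and an edgeR adjusted p of 0.292, so it did not pass over all genes. The summed microglial markers moved the same way, lower in male KO and higher in female KO than in WT of that sex, without overlap. The part of this in the Ctsb values was not tested. Ctsb lies on the chromosome of Chd8 and starts 10.9 megabases beyond it. It was thinly counted in the shallow libraries, with 52 UMIs in female KO replicate 33 and 54 in female WT replicate 34, and shares 774 bases with Fdft1 on the opposite strand (median 1 UMI).

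Ctsl encodes cathepsin L, an endoprotease that processes other lysosomal enzymes (chromosome 13, 64359337 to 64370890). Its level was 1278, 1382, 1377, 1437 and 1446 CPM in male KO against 1173, 1305, 1087, 1192 and 1161 CPM in male WT libraries. Its female KO libraries held 1114, 1565, 1336 and 682 CPM, against 962, 1309, 764 and 1081 CPM in female WT libraries. The male KO libraries were the higher ones apart from replicate 6, which lay under 1 WT library, and the lowest female KO value was replicate 33. On the log2 scale KO differed from WT by 0.23 ± 0.16 in males (edgeR adjusted p = 0.521) and 0.20 ± 0.18 in females (edgeR adjusted p = 0.668). Fitted on the male libraries alone, which have a smaller spread, the same change in males passed (0.23 ± 0.072, edgeR adjusted p = 0.0441), as did 11.3% of genes in that fit.

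Ctss encodes cathepsin S, which trims the invariant chain from class II molecules and stays active at neutral pH (chromosome 3, 95526786 to 95556403). It had 7428, 6298, 8236, 6795 and 6468 CPM in male KO against 7758, 8059, 6612, 7429.6 and 7719 CPM in male WT libraries. Female KO libraries held 5523, 6622, 7183 and 4701 CPM, against 5763, 7709, 4684 and 8246 CPM in female WT libraries. The groups overlapped in both sexes, with log2 fold changes of -0.093 ± 0.14 in males (edgeR adjusted p = 0.824) and -0.14 ± 0.16 in females (edgeR adjusted p = 0.755).

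Ctsc and Ctsh cut from the amino end of proteins. Ctsc encodes cathepsin C, a dipeptidyl peptidase that activates granule serine proteases (chromosome 7, 88278085 to 88310888). It had 277, 279.8, 329.7, 463 and 353 CPM in male KO against 269.8, 343, 225, 238 and 318 CPM in male WT libraries, and 407, 383, 479.8 and 288 CPM in female KO against 251, 284, 360.5 and 379 CPM in female WT libraries. KO means were higher in both sexes with overlapping groups, and the log2 fold change was 0.29 ± 0.16 in males (edgeR adjusted p = 0.372; 0.16 without male KO replicate 36) and 0.32 ± 0.19 in females (edgeR adjusted p = 0.443). Over both sexes it was 0.30 ± 0.12, with an unadjusted p of 0.0229 and an edgeR adjusted p of 0.136. Ctsh, for cathepsin H, an aminopeptidase (chromosome 9, 90054152 to 90076089), stayed between 826 and 1249.8 CPM in all 18 libraries. Its means were 1095 ± 113 CPM in male KO, 1087 ± 67.5 in male WT, 992 ± 81.3 in female KO and 919 ± 117 in female WT libraries. The ratio between the highest and the lowest library was 1.51 for Ctsh and 1.63 for Ctsa; without female KO replicate 33 it was 1.51 for Ctsh and 1.32 for Ctsa.

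Ctsz and Ctsa cut from the carboxyl end. Ctsz, for cathepsin Z, a carboxypeptidase (chromosome 2, 174427493 to 174439039), had 1414, 1716, 1407, 1186 and 1089 CPM in male KO against 1709.9, 1496, 1874, 1868 and 1369 CPM in male WT libraries. In females the KO libraries held 1616, 1542, 1221 and 2671 CPM, against 2158, 1682, 1930.1 and 1958 CPM in female WT libraries. In females 3 KO libraries lay under every WT library and replicate 33 lay above them all. The log2 fold change was -0.29 ± 0.17 in males (edgeR adjusted p = 0.395) and -0.14 ± 0.19 in females (edgeR adjusted p = 0.792).

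Ctsa encodes cathepsin A, a serine carboxypeptidase that also holds lysosomal beta-galactosidase and neuraminidase in a complex (chromosome 2, 164832873 to 164841032). It had 1860.3, 1843, 1945, 1867 and 1799 CPM in male KO against 1733, 1711, 1694, 1692 and 1568 CPM in male WT libraries. Its female KO libraries held 1879.8, 1871, 1765 and 2547 CPM, against 2066, 1939, 1872 and 1860.0 CPM in female WT libraries. Every male KO library lay above every male WT library, which made Ctsa 1 of 10 genes whose male groups did not overlap, where 9.85% of all genes tested did not. No gene of the 10 had such groups in females, where 5.32% did. The log2 fold change of Ctsa was 0.15 ± 0.10 in males (edgeR adjusted p = 0.477) and 0.056 ± 0.11 in females (edgeR adjusted p = 0.872). Pltp and Neurl2 lie on the opposite strand and share 1515 and 584 bases with Ctsa; the strand setting of the counting is not given in the sources used here, so reads of such pairs cannot be told apart.

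Lgmn encodes legumain, the asparaginyl endopeptidase (chromosome 12, 102394084 to 102439813). It had 4857, 4437, 5064, 4557 and 4372 CPM in male KO against 4619, 4225, 4239.8, 4204 and 4308 CPM in male WT libraries. Female KO libraries held 5086, 4478, 4934 and 2321 CPM, against 3640.5, 3290.0, 4059 and 4501 CPM in female WT libraries. The lowest value of all 18 was female KO replicate 33, while 2 of the other 3 female KO libraries lay above all female WT libraries and replicate 7 lay above all but 1. KO over WT gave a log2 fold change of 0.11 ± 0.15 in males (edgeR adjusted p = 0.799) and 0.12 ± 0.17 in females (edgeR adjusted p = 0.799).

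Cst3, for cystatin C (chromosome 2, 148871722 to 148875692), was the most variable of the 10 genes. It had 34241, 46725, 31099, 28487 and 22949 CPM in male KO against 42801, 40202, 39846, 44704 and 36173 CPM in male WT libraries. In females the KO libraries held 33970.1, 35292, 31003 and 83527 CPM, against 53519.9, 52103, 43893 and 51318 CPM in female WT libraries. In males 4 of the 5 KO libraries lay under all WT libraries, and replicate 9 lay above them all. In females 3 KO libraries lay under all WT libraries, and replicate 33 lay above them all. On the log2 scale KO differed from WT by -0.32 ± 0.21 in males (edgeR adjusted p = 0.492) and -0.13 ± 0.24 in females (edgeR adjusted p = 0.861). Among the male libraries of the low reads-per-UMI range alone (4 KO, 3 WT) it was -0.44 ± 0.12 (edgeR adjusted p = 0.0396), and Cst3 was then the only one of the 10 genes called, where 9.12% of genes were. The other 2 ranges held too few libraries of a group for such a fit.

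**Figure D2:**
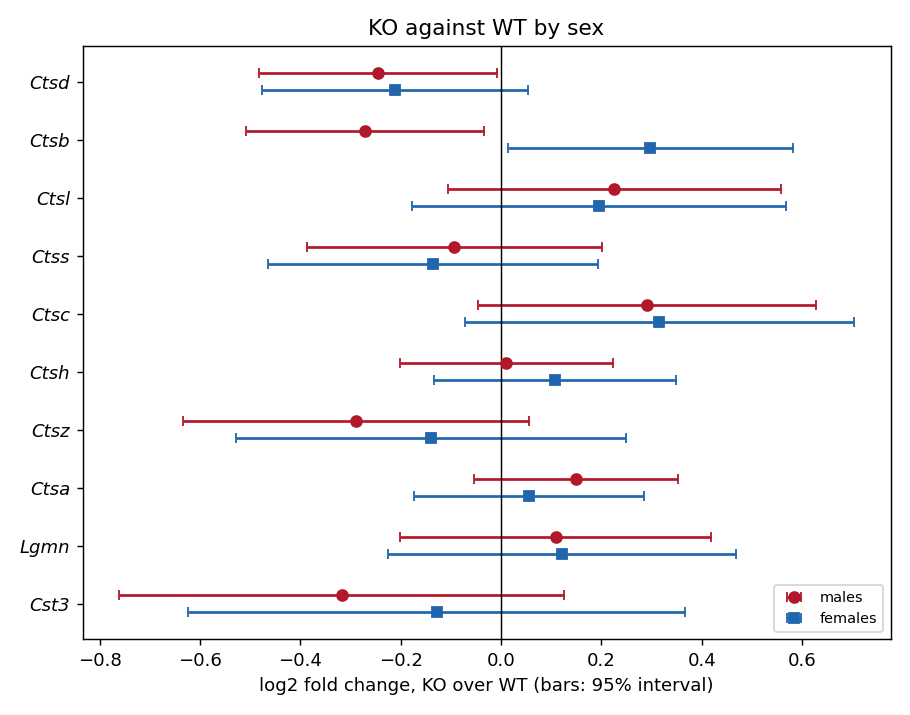
Log2 fold change of KO over WT in males and in females for each of the 10 genes, with 95% intervals from the edgeR fit on all 18 libraries and a line at 0. No gene passed an adjusted p of 0.05 in either sex, and Ctsb is the gene whose 2 intervals lie on opposite sides of 0.

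Depth and the way of counting were set beside the Cst3 values. The shallowest library, female KO replicate 33, had the highest share of UMIs (7.45%), and the deepest, male KO replicate 40, the lowest (2.47%). Counted as reads before UMI correction the same libraries held 10.3% and 4.10%. Cst3 had more reads per UMI than its library as a whole in all 18 libraries, by 1.13 to 1.66 times, with the highest ratio in male KO replicate 40. Reads of Cst3 averaged 4.37% ± 0.706 in male KO and 5.40% ± 0.630 in male WT libraries, and 6.04% ± 2.91 in female KO and 5.98% ± 0.965 in female WT libraries. The log2 fold change from reads was -0.35 ± 0.23 in males (edgeR adjusted p = 0.735). In females the sign turned, with 0.055 ± 0.26 (edgeR adjusted p = 0.951). The part of depth in the Cst3 values was not tested.

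**Figure D3:**
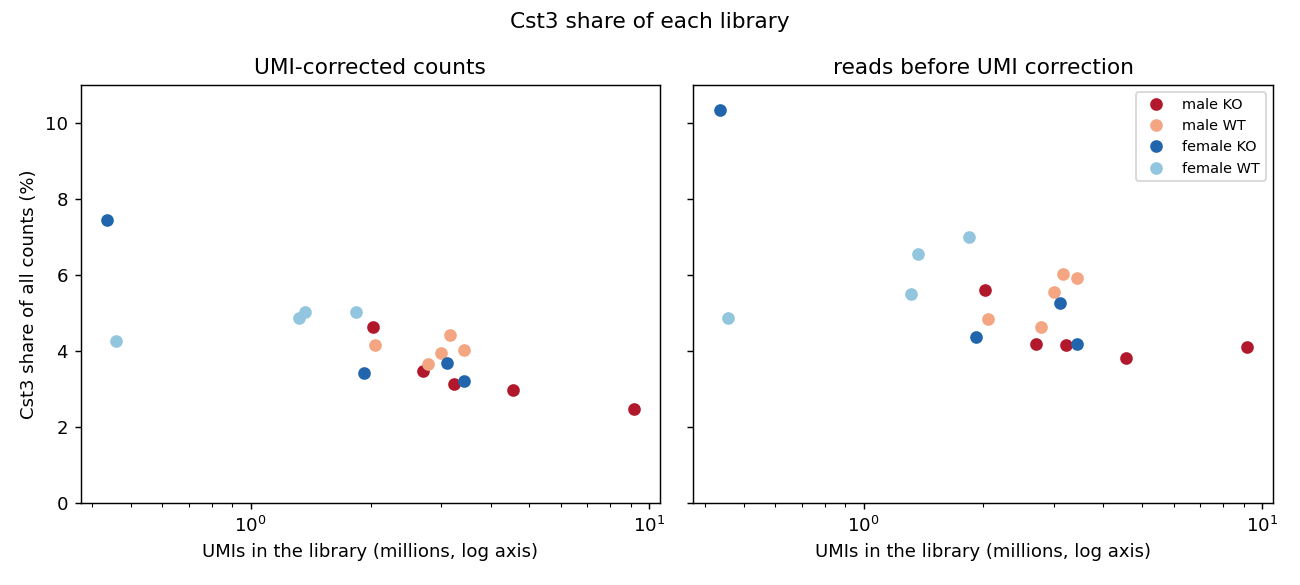
Share of each library taken by Cst3 (percent) against the library's depth in UMIs (log axis), by UMI-corrected counts on the left and by reads on the right, 1 point per library coloured by group. Female KO replicate 33 stands at 7.45% of UMIs and 10.3% of reads, and male KO replicate 40 at 2.47% and 4.10%.

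Over both sexes with equal weight 0 of the 10 genes were called, where 9.50% of all genes were, and 2 (Ctsc and Ctsd) passed at an unadjusted p under 0.05; DESeq2 also called 0. Female KO replicate 33 decided this count. Without that library 5 of 10 genes were called over both sexes, where 14.2% of 11170 genes were. Cst3 (-0.45 ± 0.10, edgeR adjusted p = 0.00537) and Ctsz (-0.35 ± 0.097, edgeR adjusted p = 0.0201) were then lower in KO, while Ctsl (0.30 ± 0.090, edgeR adjusted p = 0.0294), Lgmn (0.22 ± 0.066, edgeR adjusted p = 0.0328) and Ctsc (0.36 ± 0.12, edgeR adjusted p = 0.0470) were higher. In females Cst3 alone was then called (-0.58 ± 0.16, edgeR adjusted p = 0.0330), where 6.09% of genes were, with 33422 ± 2196 CPM in the 3 remaining KO libraries and 50208 ± 4308 CPM in the 4 WT libraries.

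Of those 5 calls, 3 passed in reads. With reads in place of UMIs and the same library left out, 3 genes were called over both sexes, where 8.77% of 12478 genes were. These were Lgmn (0.40, edgeR adjusted p = 0.00254), Cst3 (-0.42, edgeR adjusted p = 0.0106) and Ctsz (-0.34, edgeR adjusted p = 0.0480). Ctsl (0.31, edgeR adjusted p = 0.0521) and Ctsc (0.33, edgeR adjusted p = 0.0954) did not pass. In females the 1 gene called in reads was Lgmn (0.58 ± 0.12, edgeR adjusted p = 0.00841), where 4.60% of genes were. Leaving out both libraries of under 1000000 UMIs gave 5 calls over both sexes, where 13.3% of genes were called, and 1 in females (Cst3), where 4.17% were. Without replicate 33 no female KO library is left in the high range of reads per UMI, which held 3 of the 4 female WT libraries, so that in females genotype and that range are partly confounded. In the middle range, female KO replicates 1 and 7 held 33970.1 and 35292 CPM of Cst3 against 51318 CPM in female WT replicate 39, and 1616 and 1542 CPM of Ctsz against 1958 CPM. For Ctsl they held 1114 and 1565 CPM against 1081 CPM, and for Lgmn 5086 and 4478 CPM against 4501 CPM. With 1 WT library there, no test was run. With all 18 libraries and the range as a covariate 0 of 10 genes were called over both sexes, where 5.68% of all genes were, and in females the sign turned for Cst3 (0.12), Ctsz (0.061), Ctsl (-0.11) and Lgmn (-0.29). That fit keeps replicate 33, the only female KO library of the high range, so these signs rest in part on it. Replicate 33 also held 5369 CPM of neutrophil markers, the most of the female KO libraries (1007 to 5369), against 2178 to 15918 CPM in female WT libraries; the part of those cells in these values was not tested.

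**Figure D4:**
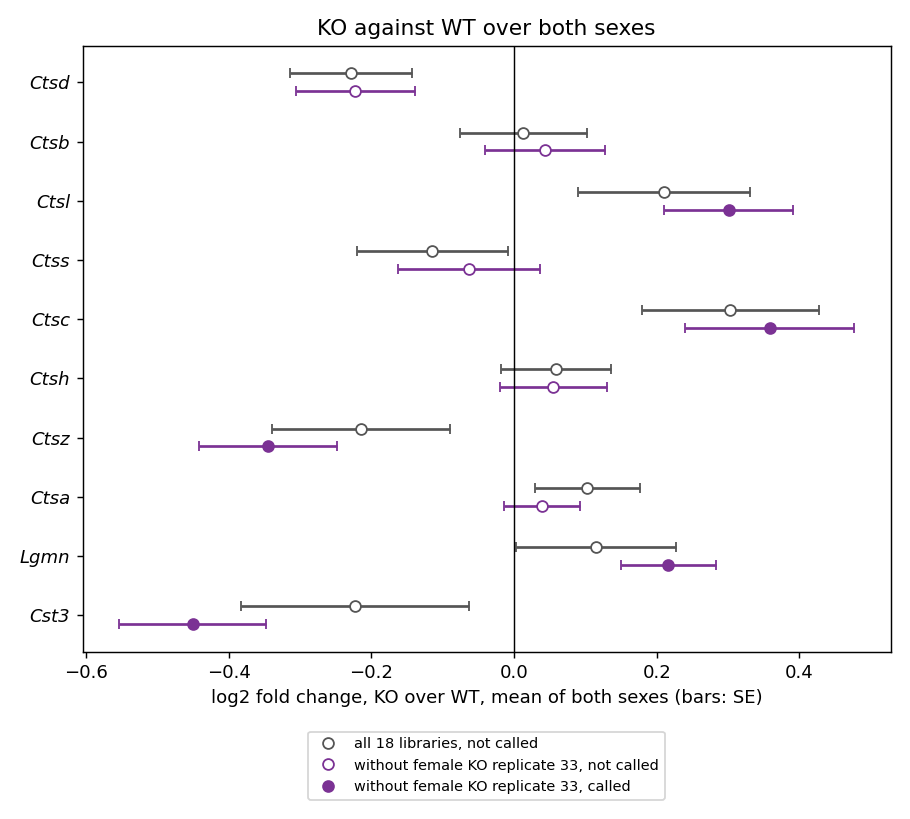
Log2 fold change of KO over WT over both sexes for each of the 10 genes, with bars of 1 SE, from all 18 libraries and without female KO replicate 33. Without that library Ctsc, Ctsl, Lgmn, Ctsz and Cst3 pass an edgeR adjusted p of 0.05, and with it none does.

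Between the sexes Ctsb was the only gene of the 10 called in WT microglia, where 17.3% of all genes were and 6.94% were higher in males. It averaged 177 ± 18.1 CPM in male WT (n = 5) and 134 ± 13.0 CPM in female WT libraries (n = 4), and every male library (158 to 201 CPM) lay above every female library (121 to 149 CPM). The log2 fold change of male over female was 0.40 ± 0.13 (edgeR adjusted p = 0.0370). In reads it was 0.15 ± 0.15 (edgeR adjusted p = 0.587), and with the range of reads per UMI as a covariate it was 0.31 ± 0.18 (edgeR adjusted p = 0.418). The fit on WT libraries alone called 2 genes, Ctsb and Cst3, where 21.1% of genes were called. Relative to its library, Ctsb had 0.976 to 1.10 reads per UMI in male WT and 1.14 to 1.32 in female WT libraries. Of the other 9, Ctsa also had groups that did not overlap, with 1568 to 1733 CPM in male WT and 1860.0 to 2066 CPM in female WT libraries, but its log2 fold change of -0.20 ± 0.10 did not pass (edgeR adjusted p = 0.187). Groups that did not overlap were thus seen for 2 of 10 genes, where 18.2% of all genes had them.

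Between male and female KO microglia 0 of 10 genes were called, where 7.10% of all genes were, and 1 (Cst3) passed at an unadjusted p under 0.05; DESeq2 also called 0. Cst3 averaged 32700.0 ± 8867 CPM in male KO and 45948 ± 25117 CPM in female KO libraries, a log2 fold change of -0.49 ± 0.23 (edgeR adjusted p = 0.188). Without female KO replicate 33 that change was -0.030 ± 0.15. No gene of the 10 had groups that did not overlap, where 9.22% of all genes did. Without female KO replicate 16, Ctsz was the 1 gene called, where 15.9% of genes were. The female KO level of Ctsb was 163 ± 20.5 CPM beside 147 ± 23.6 CPM in male KO libraries, so its order in KO means was the reverse of that in WT, and the change of -0.17 ± 0.12 did not pass (edgeR adjusted p = 0.425).

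The 10 genes differed in how far libraries of 1 group spread. The pooled standard deviation of log2 CPM within groups was 0.12 for Ctsa, 0.14 for Ctsh and 0.17 for Ctsd, under the median of 0.20 over the 595 genes of a mean log2 CPM of at least 8. It was 0.18 for Ctsb, whose mean log2 CPM of 7.28 lies under that limit, beside a median of 0.345 over all 10948 tested genes. It was 0.24 for Ctss, 0.27 for Lgmn, 0.29 for each of Ctsc, Ctsz and Ctsl, and 0.38 for Cst3. By the root mean square difference of centred log2 CPM over the 18 libraries, Ctsz and Cst3 were each other's nearest among the 10 (0.164), as were Ctsh and Ctss (0.200). The nearest of the 10 to Ctsb was Ctsh (0.238), and among 8526 genes of the whole table its nearest were Usp2 (0.158), Rnf10 (0.172) and Smad5 (0.174). The first pair shares its high value in female KO replicate 33.

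Genes that work beside these proteases were counted in 8 lists, against a background over all genes of 3.37% higher and 2.87% lower in male KO, 0.849% higher and 1.83% lower in female KO, and 4.37% higher and 5.13% lower in KO over both sexes. Of 14 listed inhibitors of cathepsins besides cystatin C, 5 were tested, and 1 was lower in KO in each sex. This was Cst7, for cystatin F, an inhibitor that acts inside the endosomes and lysosomes of immune cells. It averaged 10.5 ± 3.74 CPM in male KO and 24.1 ± 3.15 CPM in male WT libraries, and 15.2 ± 5.38 CPM in female KO and 34.998 ± 8.70 CPM in female WT libraries. The log2 fold change was -1.19 ± 0.21 in males (edgeR adjusted p = 0.000913) and -1.41 ± 0.26 in females (edgeR adjusted p = 0.00809). Cst7 was called in each of 28 alternatives in males and in 25 of 27 in females, where its log2 fold change ran from -1.82 to -1.23. It missed the threshold with reads-per-UMI range as a covariate, where 0.913% of all genes were called, and in the fit on female libraries alone, which called 0 of 9188 genes.

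Of 12 other cathepsins 3 were tested, and in females 1 was lower in KO. Napsa, for the aspartic protease napsin A, averaged 27.6 ± 12.5 CPM in female KO and 74.2 ± 23.9 CPM in female WT libraries (log2 fold change -1.61 ± 0.29, edgeR adjusted p = 0.00809). It averaged 19.3 ± 7.52 CPM in male KO and 15.6 ± 2.52 CPM in male WT libraries (not called). Over both sexes its log2 fold change was -0.66 ± 0.19 (edgeR adjusted p = 0.0343), called in 13 of 26 alternatives. The KO effect differed between the sexes for 1 of the 3, where 0.237% of all genes did. Summed monocyte markers averaged 313 CPM in female WT, 83.0 in female KO, 36.5 in male WT and 29.1 in male KO libraries. The part of such cells in Napsa was not tested. Of 7 tested among 10 other lysosomal or surface peptidases, 1 was lower in male KO. That was Dpp7, a dipeptidyl peptidase of the lysosome, with 44.2 ± 5.20 CPM in male KO and 71.8 ± 4.48 CPM in male WT libraries (log2 fold change -0.71 ± 0.14, edgeR adjusted p = 0.00226). Over both sexes Mmp14, a metalloprotease of the cell surface, was also lower (-0.42 ± 0.13, edgeR adjusted p = 0.0407), with the call kept in 12 of 26 alternatives.

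None of 12 tested genes for sorting to the lysosome, 10 for partners and activators, and 8 for regulators of lysosomal genes was called in either sex or over both. Of 15 genes of the proton pump that acidifies the lysosome 2 were higher in KO over both sexes, and 0 in each sex alone. These were Atp6v0d1 (0.27 ± 0.077, edgeR adjusted p = 0.0260) and Atp6v1c1 (0.25 ± 0.074, edgeR adjusted p = 0.0355). The call was kept in 21 of 26 alternatives for Atp6v0d1 and in 16 of 26 for Atp6v1c1. Without female KO replicate 33 the counts over both sexes were 2 lower for sorting, 3 lower for partners, and 3 higher and 1 lower for the pump, where 14.2% of all genes were called in either direction.

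In the class II pathway, where cathepsin S and legumain act, 6 of 10 tested genes were lower in female KO and none was higher. In males 1 was higher and 1 lower, and the median log2 fold change of the list was 0.095 in males and -0.63 in females. The KO effect (female minus male) was called as negative for 2 of the 10, where 0.237% of all genes were called either way. In WT, 6 of the 10 were lower in males than females (list median -0.96), where 17.3% of all genes were called either way. Ifi30, a thiol reductase of the lysosome, was lower in both sexes, with 357 ± 26.9 CPM in male KO and 488 ± 39.7 CPM in male WT libraries (-0.45 ± 0.11, edgeR adjusted p = 0.0104), and 399 ± 44.8 CPM in female KO and 615 ± 86.9 CPM in female WT libraries (-0.63 ± 0.12, edgeR adjusted p = 0.00937). Cd74, the invariant chain itself, was lower in females (-1.03 ± 0.26, edgeR adjusted p = 0.0372), as were the class II chain H2-Ab1 (-0.84 ± 0.20, edgeR adjusted p = 0.0281) and the peptide exchange factor H2-DMa (-0.47 ± 0.12, edgeR adjusted p = 0.0332). Cd74 averaged 2754 ± 527 CPM in female WT and 1357 ± 710 CPM in female KO libraries. Its male means were 659 ± 133 CPM in KO and 502 ± 128 CPM in WT libraries. The call in females was kept in 26 of 27 alternatives for Ifi30, 20 for H2-Ab1, and 18 each for Cd74 and H2-DMa. H2-Aa, another class II chain, was higher in male KO (0.67 ± 0.17, edgeR adjusted p = 0.0201). The count of genes lower in females was 5 without female KO replicate 33, 3 without female WT replicate 34, and 1 without any of female KO replicates 1, 7 and 16 or female WT replicates 30 and 39, each left out in turn. The share of all genes called in either direction moved as well, to 6.09% without female KO replicate 33, 1.35% without female WT replicate 34, 2.63% without female WT replicate 39 and 0.636% to 1.03% without each of the other 4. Over libraries left out in turn the log2 fold change in females ran from -0.70 to -0.54 for Ifi30, from -1.44 to -0.83 for Cd74, from -1.02 to -0.60 for H2-Ab1 and from -0.51 to -0.37 for H2-DMa. In reads the count was 2, where 136 of 12128 genes were called in either direction. The fit on female libraries alone called 0 of 9188 genes, and so none of the list. The calls in females were thus seen only in fits that share the spread with the male libraries. Summed monocyte markers were 64.2 to 115 CPM in female KO and 91.8 to 412 CPM in female WT libraries, and neutrophil markers were as above; the part of such cells in these differences was not tested. The differences between the sexes in these lists were not tested as lists.

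Markers of astrocytes, neurons and the oligodendrocyte lineage stood higher in the male KO libraries. Their summed level was 284 to 590 CPM in male KO and 143 to 201 CPM in male WT libraries for astrocytes, and 69.5 to 330 CPM in male KO and 14.0 to 38.7 CPM in male WT libraries for neurons. For the oligodendrocyte lineage it was 302 to 881 CPM in male KO and 174 to 230 CPM in male WT libraries. Endothelial and mural markers did not differ so, with 34.5 to 39.0 CPM in male KO and 33.4 to 42.6 CPM in male WT libraries. Erythroid markers averaged 281 CPM in male KO and 73.5 CPM in male WT libraries, and lymphocyte markers 96.6 and 66.0 CPM. Of the 9 astrocyte markers, Slc1a3 (up to 235 CPM), Aldoc (up to 171 CPM), Clu, Slc1a2 and S100b were at 0 in no library. Aldh1l1 was at 0 in 2 of the 18 libraries, Gfap in 4, Aqp4 in 12 and Gja1 in 13. Astrocytes and other brain cells also express Cst3 and several cathepsins, and the part of such RNA in the male values was not tested. Male KO replicates 6, 9 and 17 held the most of the astrocyte, neuron and oligodendrocyte lineage markers. Without these libraries the log2 fold change of Cst3 in males was -0.66 ± 0.27 (edgeR adjusted p = 0.304), and that of Ctsd over both sexes passed (-0.32, edgeR adjusted p = 0.0499), where 6.02% of all genes were called. Only male KO replicates 36 and 40 were then left, the deepest of the 18 libraries (4549562 and 9149144 UMIs). They also held the lowest values of Cst3 (28487 and 22949 CPM) and Ctsd (9437 and 7838 CPM). The part of depth in these changes was not tested.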

How the data were processed

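Counts per Ensembl gene were deposited by the authors in 2 tables, 1 of reads before correction for unique molecular identifiers (UMIs) and 1 of UMI-corrected counts, both whole numbers not scaled for depth. Per the submitters' processing notes, cutadapt, STAR, HTSeq and the genome build mm10 were used; for versions, strand setting, annotation and UMI method the sources used here state nothing. Per the labels' protocols, each library began with 30 ng of RNA, barcoded as cDNA was made and then pooled for amplification. Of 34 library columns, 18 matched samples by name and 16 were not used. Symbols and coordinates came from GENCODE M21 (GRCm38), for 52133 of 55414 identifiers and at least 99.92% of UMIs per library. Tags at 3' ends cannot separate genes that overlap there.

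UMI-corrected counts were filtered with filterByExpr by group (10948 genes), scaled by TMM and fitted with 1 mean per group over all 18 libraries by edgeR 4.0.16 quasi-likelihood (R 4.3.3; common biological coefficient of variation 17.8%). Calls used a two-sided p, adjusted by Benjamini-Hochberg over all genes tested, of under 0.05. SE of a log2 fold change is its size over the square root of F. Contrasts were KO against WT in males, in females and over both, their difference, and male against female within WT and KO. CPM of single genes was scaled by TMM; marker sums used library totals. The scripts were tested on simulated data.

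The 10 genes and all lists were chosen with earlier results of these data known, so no count over a list is independent evidence. Named were all 10 genes, Chd8, up to 4 called genes of lowest p per list and KO contrast, and the nearest genes of a called gene among those of a mean log2 CPM of at least 3. Sums of reads per gene depend on amplification, and UMI counts on how identifiers were collapsed. The labels do not say whether libraries came from separate animals, so p-values measure only the spread between these libraries, which may be technical. Total counts of 435838 to 9149144 UMIs per library set the precision. Alternatives were RLE scaling, DESeq2 1.42.0, no filter, reads, only the groups compared, reads-per-UMI range as covariate or held fixed, and leaving out libraries. Every library has its own replicate number, so no pairs were formed.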

Additional observations from a re-analysis of the deposited data

Results flagged for a closer look

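Of 44 sets of values tested (each of the 10 genes and their summed share of UMIs, in each of the 4 groups), 5 held a library far from the rest by Dixon's 95% limit, and chance flags about 1 in 20. In female KO libraries, replicate 33 had 83527 CPM of Cst3 against 31003 to 35292 CPM in the other 3, and 2547 CPM of Ctsa against 1765 to 1879.8 CPM. The 10 genes together took 9.69% of its UMIs against 6.18% to 6.59% in the other female KO libraries. In male WT libraries, replicate 37 had 1568 CPM of Ctsa against 1692 to 1733 CPM in the other 4. Replicate 10 had 4619 CPM of Lgmn against 4204 to 4308 CPM in the other male WT libraries.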

How the results depend on the processing

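No paired analysis was possible because every library has a replicate number of its own. The count of the 10 genes called between KO and WT in females (0) was 1 without female KO replicate 33 (Cst3; 0 to 1 over libraries left out in turn), 1 in reads without that library (Lgmn) and 1 without the 2 libraries under 1000000 UMIs (Cst3, -0.63). In males (0) it was 1 in the fit on male libraries alone (Ctsl) and 1 within the low reads-per-UMI range (Cst3). Over both sexes (0) it was 1 with no filter on low counts (Ctsc, 0.35, edgeR adjusted p = 0.0249), 1 without male KO replicates 6, 9 and 17 (Ctsd), 3 in reads without female KO replicate 33, and 5 without the 2 shallow libraries, where 13.3% of all genes were called; it ran from 0 to 5 over libraries left out in turn, with 5 without female KO replicate 33 and 1 without female WT replicate 31 (Ctsd, -0.27, edgeR adjusted p = 0.0408). Between male and female WT (1, Ctsb) it was 0 in reads, 0 with the range as a covariate, 0 without the 2 shallow libraries (Ctsb, 0.37, edgeR adjusted p = 0.0506) and 2 on the WT libraries alone (Ctsb, and Cst3 at -0.31, edgeR adjusted p = 0.0212). In reads without female KO replicate 33 it stayed at 1, where 17.4% of genes were called, but with another gene. Lgmn was then called (0.37, edgeR adjusted p = 0.0204) and Ctsb was not (0.15, edgeR adjusted p = 0.489). The count between male and female WT ran from 0 to 2 over libraries left out in turn: 0 without female WT replicates 30 or 34 or male WT replicates 14 or 37, and 2 without female WT replicate 31 (Ctsb and Ctsh). Ctsb kept its call in 19 of 27 alternatives (edgeR adjusted p of 0.0106 to 0.587). Between male and female KO (0) it ran from 0 to 1, with 1 without female KO replicate 16 (Ctsz). Female minus male KO effects stayed at 0 of 10 in all alternatives run.

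Signs turned in uncalled changes, and those given here are not all of them. In females these were Cst3 (0.055 in reads, 0.12 with the range as a covariate, -0.58 to 0.033 over libraries left out in turn), Ctsa (-0.096 in reads without female KO replicate 33, -0.074 without the 2 shallow libraries, -0.070 to 0.13 over libraries), Ctsz (0.061 with the covariate, -0.40 to 0.014 over libraries), Ctsl (-0.11) and Lgmn (-0.29) with the covariate. In males Ctsh was -0.0016 in reads, -0.0021 in reads without female KO replicate 33, -0.010 with the covariate, -0.026 without male KO replicates 6, 9 and 17, and -0.033 to 0.058 over libraries. With the covariate, Lgmn over both sexes was -0.099, and between male and female WT 6 of 10 turned: Cst3 (0.33), Ctsa (0.020), Ctsz (0.23), Lgmn (-0.39), Ctsl (-0.19) and Ctss (-0.18). Over both sexes Ctsb (0.013 in the main fit) was -0.056 in reads, -0.017 with the covariate and -0.0043 without female WT replicate 34. Between male and female KO, leaving out female KO replicate 33 turned Ctsa from -0.11 to 0.021 and Lgmn from 0.14 to -0.052. The cause was not tested in any of these. Counted in reads, the 10 genes together took 7.50% in male KO, 8.60% in male WT, 8.93% in female KO and 8.96% in female WT libraries.

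Fits on only the groups compared were not run for both sexes or the difference, which need all 4 groups, and those within a range of reads per UMI were not run outside males for want of libraries. In shallow libraries, depth limits Ctsb most, with 52 and 54 UMIs. Leaving out the 2 shallow libraries, and reads without female KO replicate 33, were chosen after seeing the data.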
